A study of Rattus norvegicus with 16 samples.

Results

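Subunits of the mitochondrial respiratory chain that are encoded in the nucleus were examined in glomeruli, the filtering units of the kidney, isolated from rats with puromycin aminonucleoside (PAN) nephrosis. Members were the genes whose symbol began with Nduf followed by a, b, c, s or v, with Uqcr, with Cox and a digit from 4 to 8, or with Atp5, together with Sdha, Sdhb, Sdhc and Sdhd. They also needed 10 or more reads in at least 4 of the 16 libraries. Of 36351 genes in the table, 102 matched by name and 87 of these also met the count rule. The 87 comprised 34 genes of complex I, 4 of complex II, 8 of complex III, 13 of complex IV, 14 of complex V, 10 assembly factors and 4 copies or genes labelled as pseudogenes.

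The respiratory chain sits in the inner mitochondrial membrane. Complex I takes electrons from NADH and complex II takes them from succinate. Complex III passes them to cytochrome c and complex IV to oxygen, and the proton gradient built on the way drives ATP synthesis by complex V. Most subunits are encoded in the nucleus and imported, and a few core subunits of complexes I, III, IV and V come from the mitochondrial genome, which was not analysed here. Proximal tubule cells are among the most mitochondria-rich cells of the kidney, whereas podocytes, the epithelial cells of the filter, are also supported by glycolysis, so tubule fragments in a glomerular preparation bear directly on these genes.

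There were 4 groups of 4 rats each, all sampled on day 11. PAN, a podocyte toxin, was injected into the tail vein at 50 mg/kg on day 0. The sham group served as healthy controls and the PAN group as untreated disease, and both were given vehicle by mouth every day. The PAN+MP group received PAN and then methylprednisolone, a glucocorticoid, at 15 mg/kg daily by intraperitoneal injection, and the PAN+Pio group received PAN and then pioglitazone, which activates PPAR gamma, at 10 mg/kg daily by mouth. The study asked which disease-induced changes in expression each drug lessened. Whole isolated glomeruli were sequenced, so fewer cells of a type and less RNA per cell cannot be told apart.

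The libraries held 22802109 to 32571877 counted reads and differed little in scaling (TMM factors 0.952 to 1.05). Levels below are CPM, read counts scaled to a common TMM-adjusted library size. CPM does not correct for transcript length, so levels are compared between libraries and not between genes. Libraries are numbered by their order among the columns of their group, and the number is a name only. Podocyte markers, which define the filter, summed to 21110 to 34469 CPM in the sham libraries and 19393 to 29045 CPM in the PAN libraries. Proximal tubule markers, 25 genes including Lrp2, which rat podocytes also make, summed to 4945 to 10546 CPM in sham and 3380 to 16685 CPM in PAN. PAN library 2 had the lowest and PAN library 3 the highest tubule sum of the 16 libraries.

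Several subunits of these complexes did not meet the count rule. Ndufa1 and Ndufs6 of complex I and Atp5f1, the b subunit of the complex V stalk, had at most 5, 4 and 4 reads in any library. Ndufa13, which the table labels a pseudogene, had at most 6. Cox6b1, a complex IV subunit also labelled a pseudogene, had 12 to 47 reads, and whether reads of these genes went to near-identical copies was not tested. Just inside the rule lay Atp5h-ps1, with 10 or more reads in 4 libraries, and Cox7a2l2, with 10 or more in 8, and just outside it lay Ndufv3-ps1, with 10 or more in 2. The filter on low counts before testing removed Atp5h-ps1 and left 86 members among 17061 tested genes.

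The disease comparison, PAN against sham, showed a broad rise of the chain. Of the 86 tested members, 52 rose and 0 fell, at an adjusted p under 0.05 (edgeR quasi-likelihood F test, Benjamini-Hochberg adjustment over all tested genes). The corresponding share over all tested genes was 18.9% in either direction and 10.4% for a rise. The changes were moderate. Their median log2 fold change was 0.45 over the members, beside 0.01 over all tested genes, and the highest value was 0.93, for Cox8a. A log2 fold change above 0 was found for 83 of the 86 members, against 50.7% of all tested genes. In 42 members every PAN library lay above every sham library, against 11.2% of all tested genes. Among the subunits of complexes I to V, 50 of 73 rose. In the authors' deposited table, 44 of 85 listed members were higher in PAN and 0 were lower, and 42 of the 44 were also called here. Those calls come from the same libraries and are not independent of the counts above. The share over all genes of that table was not counted.

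The count rested in part on PAN library 3. Without it 29 members rose, and without PAN libraries 2 and 3 together 32 rose, a choice made after the data were seen. A fit restricted to the sham and PAN libraries called 29. The same restriction gave 36 in PAN+MP against sham and 21 in PAN+Pio against sham. With all 16 libraries these were 25 and 21. The complex I level per library, defined further on, had an SD of 0.24 in PAN. It was 0.09 in sham, 0.06 in PAN+MP and 0.08 in PAN+Pio. How far the shared estimate of spread or the smaller number of libraries sets these counts was not tested. The shares of all tested genes called in these refits are not given here. The counts therefore do not show whether the members moved more than other genes.

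**Figure D1:**
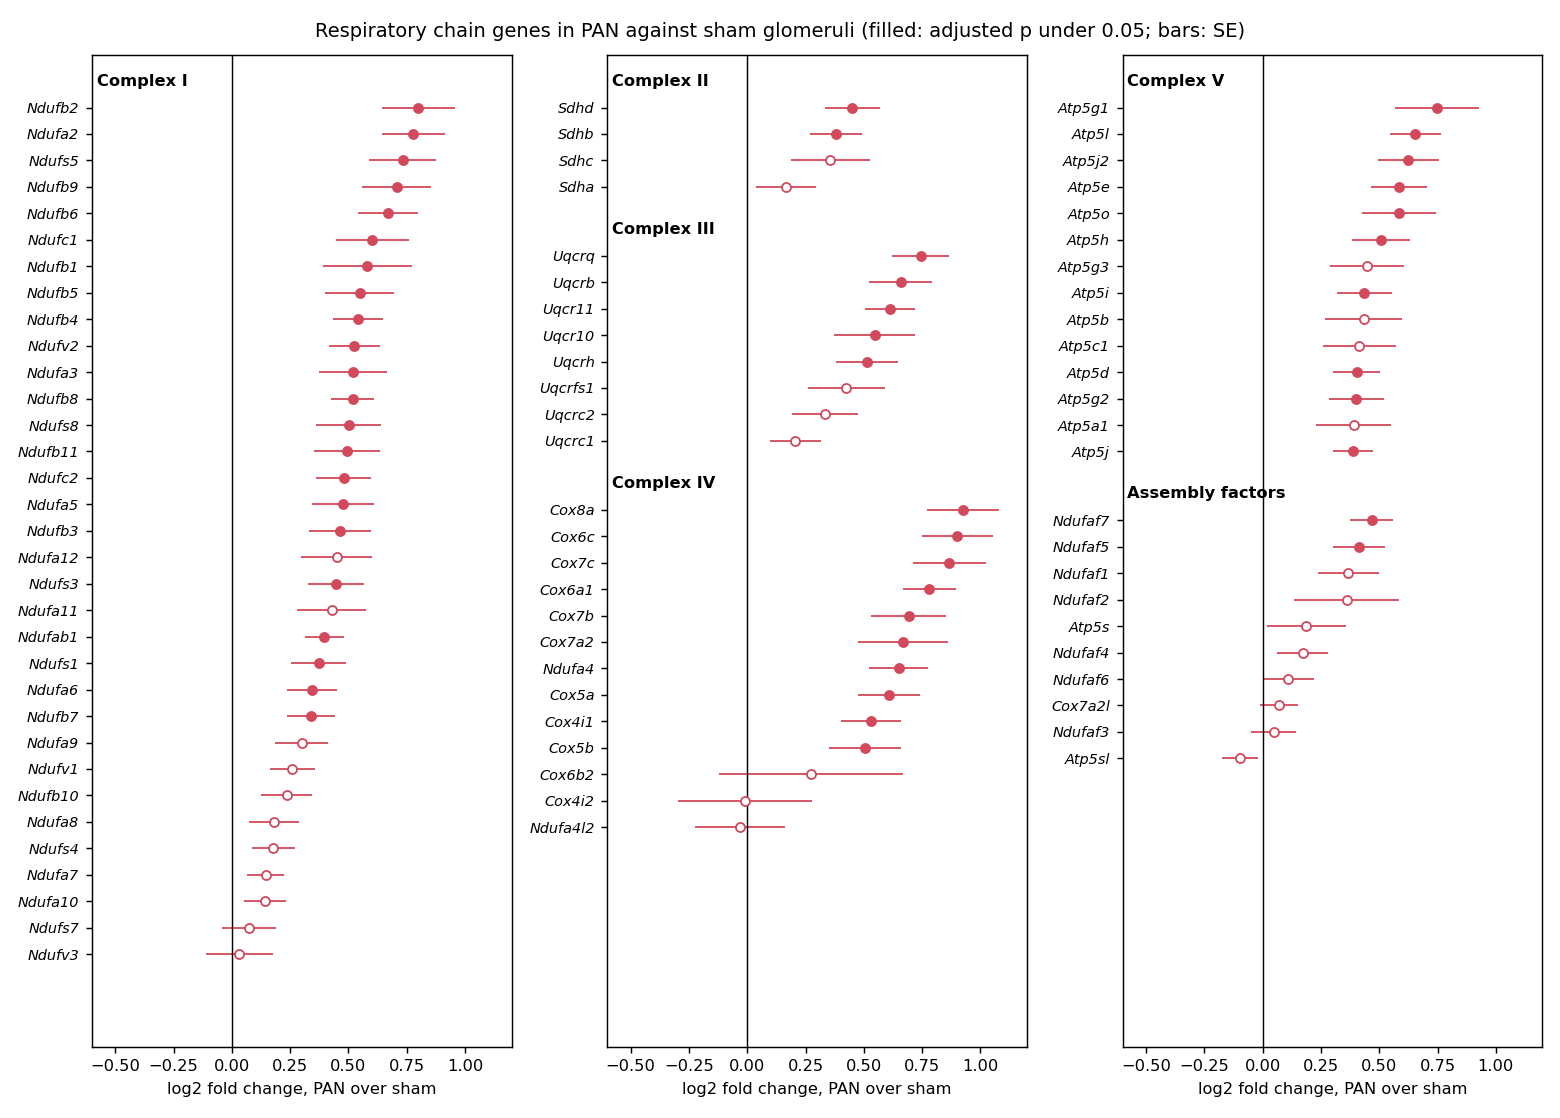
Log2 fold change of PAN over sham for tested members, grouped by complex and ordered by size (points, edgeR estimate; bars, SE; 4 libraries per group). Filled points passed an adjusted p under 0.05. All complex I genes shown lie above 0, the 3 complex IV genes at the bottom of their panel are the tissue-restricted isoforms, and Cox8a has the highest value at 0.93.

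Complex I, the entry point for NADH electrons, had 23 of 34 genes that rose and a median log2 fold change of 0.47. The rise covered the core subunits, which carry the electron path, and the accessory subunits around them. Of the 7 core subunits, 5 rose, among them Ndufv2. Of the 27 accessory subunits, 18 rose. Without PAN library 3, Sham library 1 or Sham library 3, the count for complex I was 10, 14 and 13.

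Ndufa2, a small accessory subunit of the matrix arm, was at 7.40, 9.38, 9.24 and 9.31 CPM in sham and 15.7, 12.8, 18.5 and 13.7 CPM in PAN. All 4 PAN libraries lay above all sham libraries, and the log2 fold change was 0.78 ± 0.13 (SE; edgeR adjusted p = 0.000907). Ndufb8, a membrane-arm subunit often used as a marker of assembled complex I, was at 26.8, 30.7, 25.5 and 27.4 CPM in sham and 35.0, 35.7, 43.5 and 43.8 CPM in PAN. These groups did not overlap either, and the log2 fold change was 0.52 ± 0.09 (edgeR adjusted p = 0.00112). Ndufb6, another membrane-arm subunit, rose by 0.67 ± 0.13 on the log2 scale (edgeR adjusted p = 0.00189). Ndufv2, a core subunit with an iron-sulfur cluster in the NADH-oxidising module, rose by 0.53 ± 0.11 (edgeR adjusted p = 0.0032).

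Ndufv3, a small accessory subunit of the same module, had the value nearest 0 in complex I. It was at 80.2, 105, 80.0 and 92.5 CPM in sham and 79.4, 64.4, 116 and 106 CPM in PAN, with a log2 fold change of 0.03 ± 0.14 (edgeR adjusted p = 0.897). The groups overlapped, with PAN library 2 the lowest and PAN library 3 the highest of the 8 libraries.

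Complex II, succinate dehydrogenase, links the citric acid cycle to the chain and is encoded entirely in the nucleus. Its iron-sulfur subunit Sdhb and its membrane anchor Sdhd rose, and the other anchor Sdhc and the flavoprotein Sdha did not pass the test. Sdhd was at 45.1, 57.4, 48.6 and 53.0 CPM in sham and 62.0, 58.8, 90.1 and 67.9 CPM in PAN. The groups did not overlap, and the log2 fold change was 0.45 ± 0.12 (edgeR adjusted p = 0.0156). Sdhb changed by 0.38 ± 0.11 on the log2 scale (edgeR adjusted p = 0.026) with overlapping groups, and both calls were lost without Sham library 1 or PAN library 3, and that of Sdhb also without Sham library 3 or 4 or PAN library 4. Sdhc had a log2 fold change of 0.36 ± 0.17 (edgeR adjusted p = 0.153), and of 0.15 without PAN library 3. Sdha was at 357, 419, 332 and 385 CPM in sham and 382, 327, 527 and 438 CPM in PAN, with a log2 fold change of 0.17 ± 0.13 (edgeR adjusted p = 0.383), and of 0.02 without PAN library 3. The lowest of these 8 values and the highest both belonged to PAN, in libraries 2 and 3.

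Complex III divided by subunit type, a division described with the values known. All 5 small subunits rose (Uqcr10, Uqcr11, Uqcrb, Uqcrh and Uqcrq, median log2 fold change 0.61). None of the core proteins Uqcrc1 and Uqcrc2 and the Rieske iron-sulfur protein Uqcrfs1 passed the test (median 0.33), and whether the 2 kinds differ was not tested. Uqcrq was at 44.1, 70.4, 49.9 and 60.0 CPM in sham and 90.7, 85.2, 97.8 and 102 CPM in PAN. The PAN libraries lay close together and above all sham libraries, with a log2 fold change of 0.74 ± 0.12 (edgeR adjusted p = 0.000658). Uqcr11 rose by 0.61 ± 0.11 (edgeR adjusted p = 0.000934) and Uqcrb by 0.66 ± 0.13 (edgeR adjusted p = 0.0029). Uqcrc1, in contrast, was at 90.4, 115, 97.2 and 102 CPM in sham and 109, 99.6, 138 and 121 CPM in PAN, with overlapping groups and a log2 fold change of 0.21 ± 0.11 (edgeR adjusted p = 0.193).

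Complex IV, cytochrome c oxidase, had the highest median of the complexes, 0.65, and 10 of 13 genes rose. The 10 are subunits found in most tissues, Cox4i1, Cox5a, Cox5b, Cox6a1, Cox6c, Cox7a2, Cox7b, Cox7c, Cox8a and Ndufa4, which was once assigned to complex I. Cox6b1, the common counterpart of Cox6b2, is counted with the copies and not among the 13, and it was not called. Cox6a1 was at 71.2, 87.8, 68.1 and 74.4 CPM in sham and 131, 103, 161 and 123 CPM in PAN. The groups did not overlap, and the log2 fold change was 0.78 ± 0.11 (edgeR adjusted p = 0.000231). Cox8a, the smallest subunit, was at 26.2, 33.4, 22.5 and 29.8 CPM in sham and 59.0, 44.0, 57.5 and 52.0 CPM in PAN. The lowest PAN library was above the highest sham library, and the log2 fold change was 0.93 ± 0.15 (edgeR adjusted p = 0.000658). Cox6c rose by 0.90 ± 0.15 (edgeR adjusted p = 0.000812) and Ndufa4 by 0.65 ± 0.13 (edgeR adjusted p = 0.0021). Cox7a2 rose by 0.67 ± 0.19 (edgeR adjusted p = 0.0251) with groups that overlapped through Sham library 2, and lost the call without Sham library 1, 3 or 4 or PAN library 3. Without PAN library 3, 8 of the 13 rose.

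The tissue-restricted isoforms of complex IV subunits did not pass the test. Cox4i2, the isoform of lung and of oxygen-sensing cells, was at 1.48 to 2.20 CPM in sham and 1.10 to 2.52 CPM in PAN. Its log2 fold change was -0.01 ± 0.29, and its common counterpart Cox4i1 rose by 0.53 ± 0.13. Ndufa4l2, a hypoxia-inducible relative of Ndufa4, had a log2 fold change of -0.03 ± 0.19, with overlapping groups. The testis isoform Cox6b2 was at 0.531 to 1.37 CPM over these 8 libraries. The muscle isoforms Cox6a2 and Cox8b had at most 6 and 2 reads in any library, and Cox7b2 and Cox8c at most 2 and 1. Cox6b1, with its few reads, had a log2 fold change of 0.75 ± 0.29 (edgeR adjusted p = 0.0833).

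Complex V, the ATP synthase, had 10 of 14 genes that rose, with a median of 0.44. The membrane part and peripheral stalk accounted for 8 of the 10, with Atp5g3, a gene for the rotating c ring, the only member of these 9 not past the threshold. In the F1 part, counted with the central stalk, Atp5d and Atp5e rose. Atp5a1, Atp5b and Atp5c1, which encode the alpha, beta and gamma subunits, did not pass the test. Atp5l, subunit g of the membrane part, was at 37.8, 39.2, 36.9 and 42.0 CPM in sham and 56.6, 50.4, 77.6 and 60.6 CPM in PAN. The sham values were tightly grouped below all PAN values, and the log2 fold change was 0.65 ± 0.11 (edgeR adjusted p = 0.000702). Atp5e, the epsilon subunit of the central stalk, rose by 0.59 ± 0.12 (edgeR adjusted p = 0.003), and Atp5j2, subunit f, by 0.62 ± 0.13 (edgeR adjusted p = 0.00362). Atp5j, coupling factor 6, had the value nearest 0 in complex V and still rose, by 0.39 ± 0.09 (edgeR adjusted p = 0.00566). Atp5b was at 608, 782, 604 and 710 CPM in sham and 804, 648, 1254 and 944 CPM in PAN, where PAN library 2 lay inside the sham range. Without PAN library 3, 6 of the 14 rose.

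Genes grouped as assembly factors, most of which help build complexes without staying in them, had 2 of 10 that rose and a median of 0.18. Beside this count, 10.4% of all tested genes rose and 18.9% were called in either direction. Ndufaf7, a methyltransferase needed for complex I assembly, was at 12.0, 14.0, 13.6 and 14.0 CPM in sham and 17.7, 17.1, 21.0 and 18.2 CPM in PAN. The groups did not overlap, and the log2 fold change was 0.47 ± 0.09 (edgeR adjusted p = 0.00223). Ndufaf5, a hydroxylase that acts early in complex I assembly, rose by 0.41 ± 0.11 (edgeR adjusted p = 0.0182) and lost the call without PAN library 3. Ndufaf1 had a log2 fold change of 0.37 ± 0.13 (edgeR adjusted p = 0.0598), Ndufaf3 of 0.05 ± 0.10 and Atp5sl of -0.10 ± 0.08, the last 2 with overlapping groups. Whether assembly factors and subunits differ was not tested.

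The level of each complex per library, taken as the mean log2 CPM of its members relative to their mean over the 16 libraries, shows how the rise was spread over rats. For the subunits of complexes I to V it was -0.39, -0.14, -0.35 and -0.26 in sham and 0.06, -0.08, 0.50 and 0.20 in PAN. PAN library 3 was the highest and PAN library 2 the lowest of the PAN group, and PAN library 2 exceeded the highest sham library by little. For complex IV the sham values were -0.43, -0.19, -0.32 and -0.30 and the PAN values 0.14, 0.11, 0.49 and 0.20, so that even the lowest PAN library stood well above sham. For complex V, PAN library 2 at -0.13 lay below Sham library 2 at -0.10, and for complex II it lay at -0.25, inside the sham range.

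**Figure D2:**
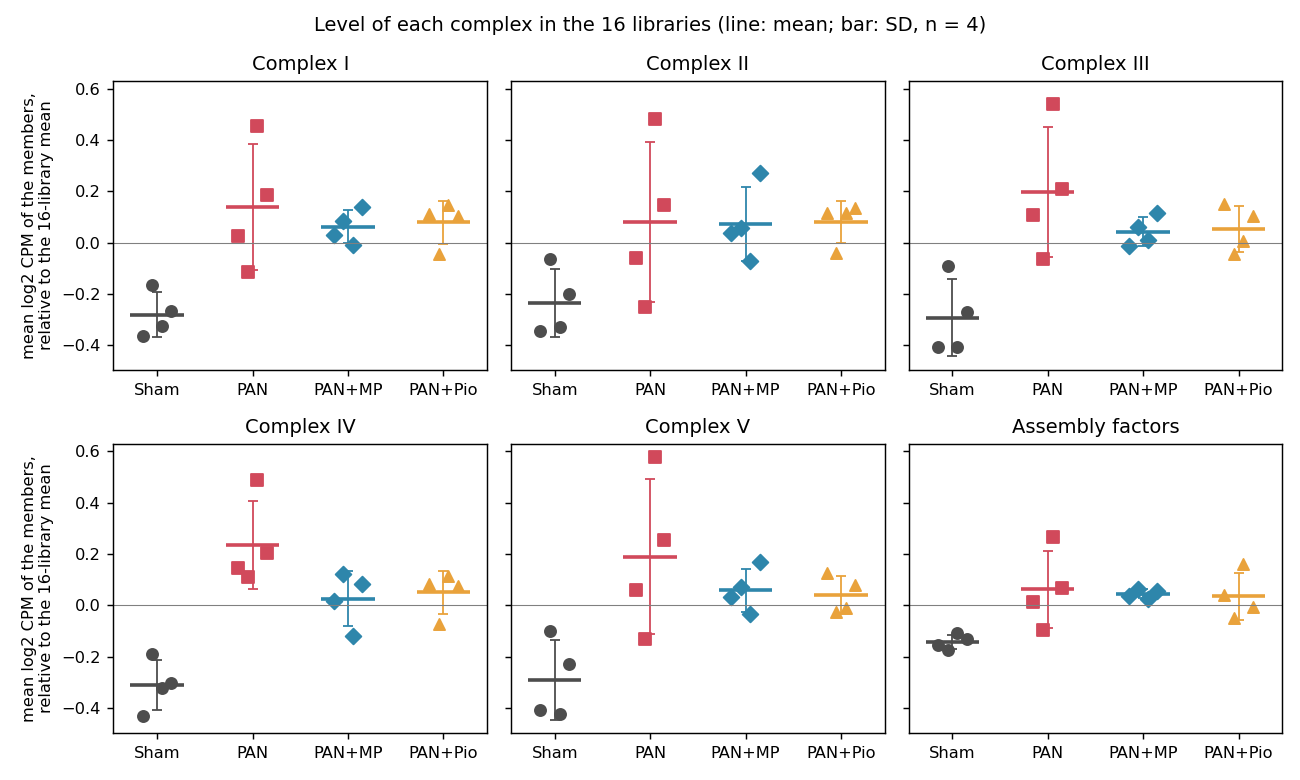
Mean log2 CPM of the members of each complex in every library, relative to their mean over the 16 libraries (points, libraries; horizontal lines, group means; bars, SD, n = 4). In complex IV every diseased library lies above every sham library, and the PAN group spreads from 0.11 to 0.49. In complex II the PAN group spreads from -0.25 to 0.48 and overlaps sham.

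Genes that work with the chain were examined in lists drawn up with earlier results of these data known. In PAN against sham, 7 of 17 tested genes of the citric acid cycle and pyruvate dehydrogenase rose and 0 fell. With a proximal tubule score as covariate, described further on, 3 of the 17 rose, and 13 had a level that increased with the score (called slope). Idh3a, a subunit of isocitrate dehydrogenase, was at 41.7, 54.7, 40.7 and 44.2 CPM in sham and 90.4, 84.8, 114 and 94.8 CPM in PAN. These groups were far apart, with a log2 fold change of 1.08 ± 0.11 (edgeR adjusted p = 1.98e-05). Among electron carriers and enzymes that feed the chain 3 of 8 rose, including Cyc1, the cytochrome c1 subunit of complex III whose symbol the name rule does not cover, by 0.54 ± 0.17 (edgeR adjusted p = 0.0351). With the score, 2 of the 8 rose and 5 had a called positive slope. Over all tested genes, 10.4% rose in PAN against sham without the score. With it, 1648 of 17061 rose and 9.23% had a called positive slope. These shares also apply to the lists that follow.

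Of 16 tested complex IV assembly factors, 4 rose, and Cox14, which acts on the mitochondrially encoded Cox1 subunit, rose by 0.78 ± 0.13 (edgeR adjusted p = 0.000682). Of 8 complex I assembly factors outside the name rule, 3 rose, and of 3 for complex V, 1 rose. Uqcc2, an assembly factor of complex III, fell by 0.35 ± 0.11 on the log2 scale (edgeR adjusted p = 0.041). It was at 15.5 to 17.5 CPM in sham and 11.8 to 13.6 CPM in PAN, and the groups did not overlap. With the proximal tubule score as covariate, 4, 2 and 1 rose in the assembly lists of complexes IV, I and V, and the call of Uqcc2 was lost.

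Other mitochondrial and metabolic lists moved in the same direction to different extents. Of 54 mitochondrial ribosome genes 14 rose and 0 fell (median log2 fold change 0.21), and of 17 import, channel and chaperone genes 7 rose, including the ADP/ATP carrier Slc25a4 by 0.51 ± 0.12 (edgeR adjusted p = 0.00958). Of 16 fatty acid oxidation genes 5 rose, led by Cpt1b, the muscle-type carnitine palmitoyltransferase, at 5.29 to 10.7 CPM in sham and 52.5 to 82.2 CPM in PAN. Glycolysis genes rose too, 9 of 15 with a median of 0.34, including Aldoa by 0.58 ± 0.08 and Pkm by 0.54 ± 0.10 (edgeR adjusted p = 0.000125 and 0.00174). Of 31 cytosolic ribosomal protein genes, 0 were called by edgeR (4 at an unadjusted p under 0.05), with a median of 0.01. With the proximal tubule score as covariate, 7 mitochondrial ribosome genes, 4 of import, channels and chaperones, 4 of fatty acid oxidation and 8 of glycolysis rose. In these lists 5, 6, 9 and 4 had a called positive slope on the score. The slope count of the mitochondrial ribosome was near the 9.23% of all tested genes.

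Regulators that drive transcription of nuclear genes for mitochondria gave 1 rise and 1 fall among 17, a share below the 18.9% of all tested genes. Esrra, the estrogen-related receptor alpha, was at 27.2, 37.4, 34.2 and 31.6 CPM in sham and 42.5, 36.5, 47.3 and 47.4 CPM in PAN, with a log2 fold change of 0.41 ± 0.11 (edgeR adjusted p = 0.0199). Nrf1, nuclear respiratory factor 1, was at 66.7, 58.1, 66.8 and 60.1 CPM in sham and 51.3, 57.1, 46.8 and 54.0 CPM in PAN, and fell by 0.27 ± 0.07 (edgeR adjusted p = 0.0215). All PAN libraries were below all sham libraries for Nrf1, while Esrra overlapped through PAN library 2. The coactivator Ppargc1a had a log2 fold change of 0.49 ± 0.18 (edgeR adjusted p = 0.0707).

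Promoters of the members were searched for the letters of 4 motifs tied to this gene class, on both strands, in RefSeq windows on the build GRCr8 from 250 bases before to 50 bases after the start. Of the 87 members 74 had such a window. The letters GCGC, any base and TGCGC, written for nuclear respiratory factor 1, were found in 20.3% of them and in 6.09% of 19005 promoters of protein-coding genes. CCGGAAGT, for GABP, was found in 9.46% against 4.99%, AAGATGGCG, for YY1, in 12.2% against 2.29%, and TCAAGGTCA, for estrogen-related receptors, in 2.7% against 0.353%. At least 1 of the 4 was present in 42.2% of the 45 members that rose in PAN and 41.4% of the 29 that were not called. The letters for nuclear respiratory factor 1 were in 15.6% of the risen and 27.6% of the uncalled, and those for GABP in 13.3% and 3.45%. No test was made of these differences. Both kinds of letters occurred in risen and uncalled members. Those of nuclear respiratory factor 1 were in the windows of Atp5g2 and Ndufaf5, which rose. GABP letters were in that of Atp5a1, which was not called. The window of Uqcrc1 also held the YY1 letters, outside the stretch printed. Below are stretches upstream of the start from a pair of genes that rose, Cox8a and Uqcrq, and a pair that did not pass the test, Sdha and Uqcrc1. Capitals mark the GABP letters in the former, read on either strand, and those of nuclear respiratory factor 1 in the latter. Each is given on the strand of its gene at chr1:213833624-213833696 (minus), chr10:38089979-38090015 (minus), chr1:30764449-30764531 (plus) and chr8:118468144-118468183 (plus).
Cox8a: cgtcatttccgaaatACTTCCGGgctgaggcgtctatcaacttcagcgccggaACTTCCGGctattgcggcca
Uqcrq: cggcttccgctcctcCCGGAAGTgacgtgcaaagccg
Sdha: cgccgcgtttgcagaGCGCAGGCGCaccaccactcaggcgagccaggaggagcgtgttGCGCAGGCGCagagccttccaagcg
Uqcrc1: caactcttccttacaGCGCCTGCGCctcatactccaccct

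The drug comparisons asked whether either treatment lowered the raised chain. Against PAN, 0 of 86 members were called under methylprednisolone by edgeR, where 8.62% of all tested genes were, and 8 had an unadjusted p under 0.05. DESeq2 also called 0. The median log2 fold change was -0.12, and 18 of 86 members had a value above 0, against 49.8% of all tested genes, with 68 below, including 8 of 8 in complex III and 14 of 14 in complex V. Under pioglitazone against PAN, 0 of 86 were called by edgeR, where 3.68% of all tested genes were, 7 had an unadjusted p under 0.05, and DESeq2 called 0. The median was -0.10, and 19 of 86 were above 0, against 49.9% of all tested genes. The PAN libraries enter both of these comparisons and the one with sham, so the directions are not independent of each other.

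No single member passed the test against PAN. Uqcrh, the hinge protein of complex III, was at 104, 96.0, 166 and 116 CPM in PAN and 91.9, 90.8, 98.0 and 95.4 CPM in PAN+MP. Of the 4 treated libraries, 3 lay below the lowest PAN library and 1 lay between PAN libraries 2 and 1. The log2 fold change was -0.36 ± 0.13 (edgeR adjusted p = 0.118), and -0.15 without PAN library 3. Ndufb5, a membrane-arm subunit of complex I, was at 40.8, 38, 65.9 and 49.8 CPM in PAN and 40.4, 35.3, 31.6 and 42.8 CPM in PAN+Pio. The groups overlapped, with 2 of the 4 treated libraries below every PAN library. Its log2 fold change was -0.37 ± 0.15 (edgeR adjusted p = 0.206), and -0.18 without PAN library 3. Atp5j2 had a log2 fold change of -0.33 ± 0.13 under methylprednisolone and -0.31 ± 0.13 under pioglitazone (edgeR adjusted p = 0.15 and 0.24). The former was -0.15 without PAN library 3.

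Both treated groups stood above sham in part of the chain. In PAN+MP against sham 25 of 86 members rose and 0 fell, where 12.7% of all tested genes were called, with a median of 0.34 over the members. In 51 members the groups did not overlap, against 10.6% of all tested genes. The 25 comprised 10 of complex I, 1 of complex II, 2 of complex III, 8 of complex IV, 2 of complex V and 2 assembly factors. In PAN+Pio against sham 21 rose and 0 fell, where 5.08% of all tested genes were called, with a median of 0.34 and 43 members with groups that did not overlap, against 7.23%. These were 11 genes of complex I, 2 of complex III, 7 of complex IV and 1 of complex V. The comparisons with sham share the sham libraries.

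Cox8a was at 44.7, 55.1, 45.1 and 43.0 CPM in PAN+MP and 50.2, 52.6, 33.2 and 52.4 CPM in PAN+Pio. PAN+MP lay above the sham range of 22.5 to 33.4 CPM in every library, and PAN+Pio did except in library 3. The log2 fold change against sham was 0.75 ± 0.15 in each treated group (edgeR adjusted p = 0.00878 and 0.0117). Cox6a1 was at 109, 124, 115 and 122 CPM in PAN+MP and 114, 103, 113 and 117 CPM in PAN+Pio, all above sham, with log2 fold changes of 0.64 ± 0.11 and 0.57 ± 0.11 (edgeR adjusted p = 0.0046 and 0.011). Uqcrq was at 76.8 to 102 CPM in PAN+MP and 83.2 to 92.4 CPM in PAN+Pio, also above every sham library.

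These counts moved with single libraries, and the shares of all tested genes called in these refits are not given here. In PAN+MP against sham the count was 7 and 10 without Sham library 1 and 3, and 11, 9 and 8 without PAN+MP library 1, 2 and 4. In PAN+Pio against sham it was 7, 7 and 10 without Sham library 1, 3 and 4, 7, 8 and 8 without PAN+Pio library 1, 3 and 4, 12, 12 and 13 without PAN+MP library 1, 2 and 3, 13 without PAN library 4 and 35 without PAN library 3. Left-out PAN and PAN+MP libraries enter there only through the shared estimate of spread, the scaling and the filter. Between the drugs, PAN+Pio against PAN+MP, 0 of 86 members were called by edgeR, 0 had an unadjusted p under 0.05 and DESeq2 called 0, where edgeR called 0.633% of all tested genes. The median difference was 0.02 on the log2 scale.

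**Figure D3:**
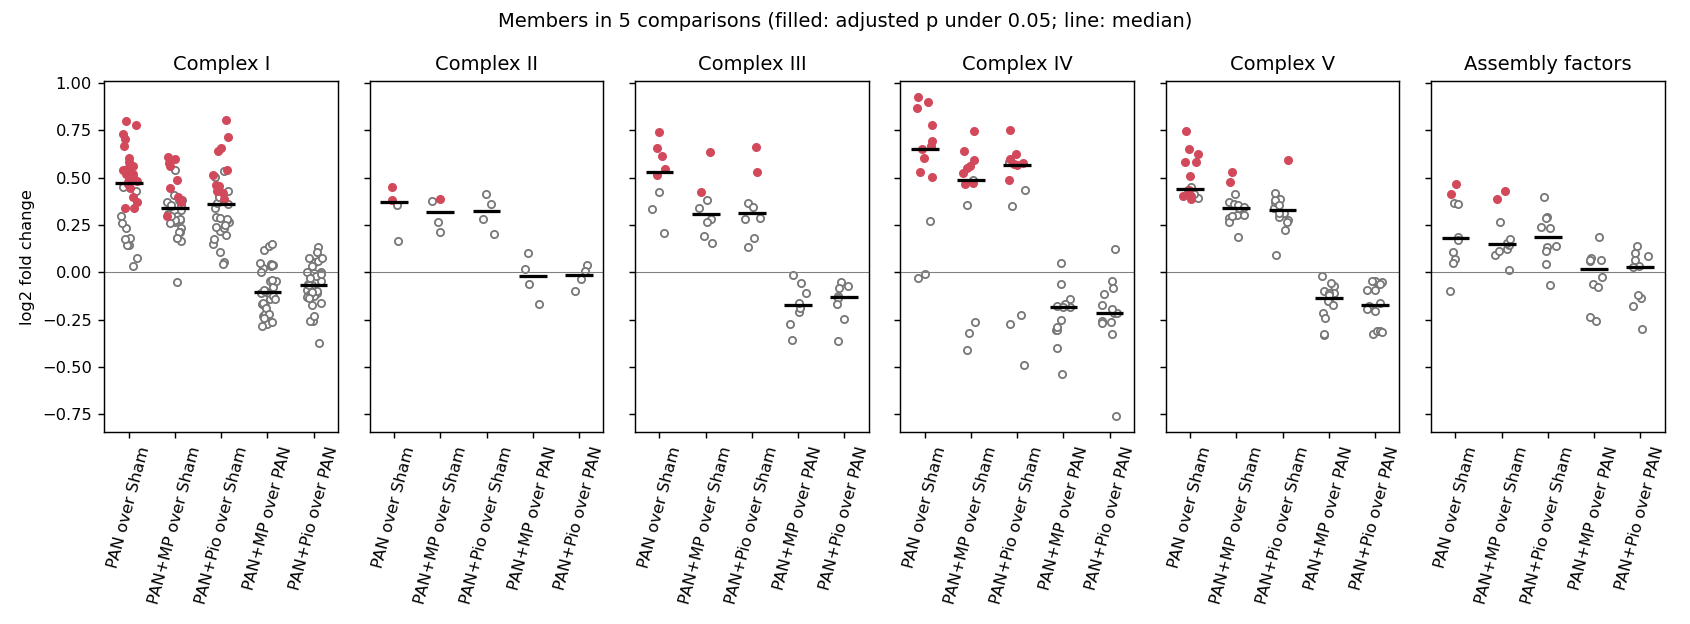
Log2 fold changes of the tested members in 5 comparisons, by complex (points, genes; filled, adjusted p under 0.05; lines, medians). The 3 comparisons with sham lie mostly above 0 and share the sham libraries. The 2 comparisons with PAN hold no filled point and have medians at or below 0 in complexes I to V.

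Tubule markers were set beside these results because the tubule sum varied widely between libraries. No pair of groups passed a test of the summed proximal tubule markers, and adjusted over 6 pairs a single pair could not pass even at the smallest p this design allows. In PAN against sham the log2 difference was 0.20 (two-sided exact permutation test, p = 0.743, adjusted over 6 pairs 0.914, n = 4 and 4, where the smallest p possible is 0.0286). It changed to -0.10 when PAN library 3 was left out and to 0.67 when PAN library 2 was. The mean of the log2 values of the 25 markers, which weights them equally, differed by 0.54 (exact permutation p = 0.4), and by 0.70 and 0.66 for PAN+MP and PAN+Pio against sham (exact permutation p = 0.114 and 0.0857). Of the 25 proximal markers, edgeR called 0 in PAN against sham (6 at an unadjusted p under 0.05). Their median log2 fold change was 0.76, and 24 lay above 0. The exception was Lrp2. Of 15 distal nephron markers, 0 were called (2 at an unadjusted p under 0.05), with a median of 0.27.

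Part of the members increased with the tubule score, the mean log2 CPM of the 25 proximal markers, between libraries of the same group. In a fit with that score as covariate, the slope was above 0 and called by edgeR for 34 of 86 members, against 9.23% of all tested genes, and below 0 for 1, Ndufa4l2, against 4.00% (13.2% in either direction). Complex V had 10 of 14 genes with such a slope and complex II 4 of 4, complex I 12 of 34, complex III 3 of 8, complex IV 5 of 13 and the assembly factors 0 of 10. Sdhc, Atp5a1 and Atp5b had slopes of 0.36 ± 0.06, 0.36 ± 0.05 and 0.36 ± 0.05 log2 units per log2 unit of the score (edgeR adjusted p = 0.000613, 0.000125 and 0.000234). In complex III the called slopes were those of Uqcrc1, Uqcrc2 and Uqcrfs1, at 0.20, 0.30 and 0.30. Those of the 5 small subunits were 0.15 to 0.19 and not called, and the difference was not tested. These slopes rested in part on PAN libraries 2 and 3. Without library 2, library 3 or both, choices made after the data were seen, 13, 13 and 5 members had a called positive slope, against 5.04%, 7.04% and 3.99% of all tested genes. The median slope over the members was 0.19 with all libraries and 0.21, 0.11 and 0.12 without these.

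**Figure D4:**
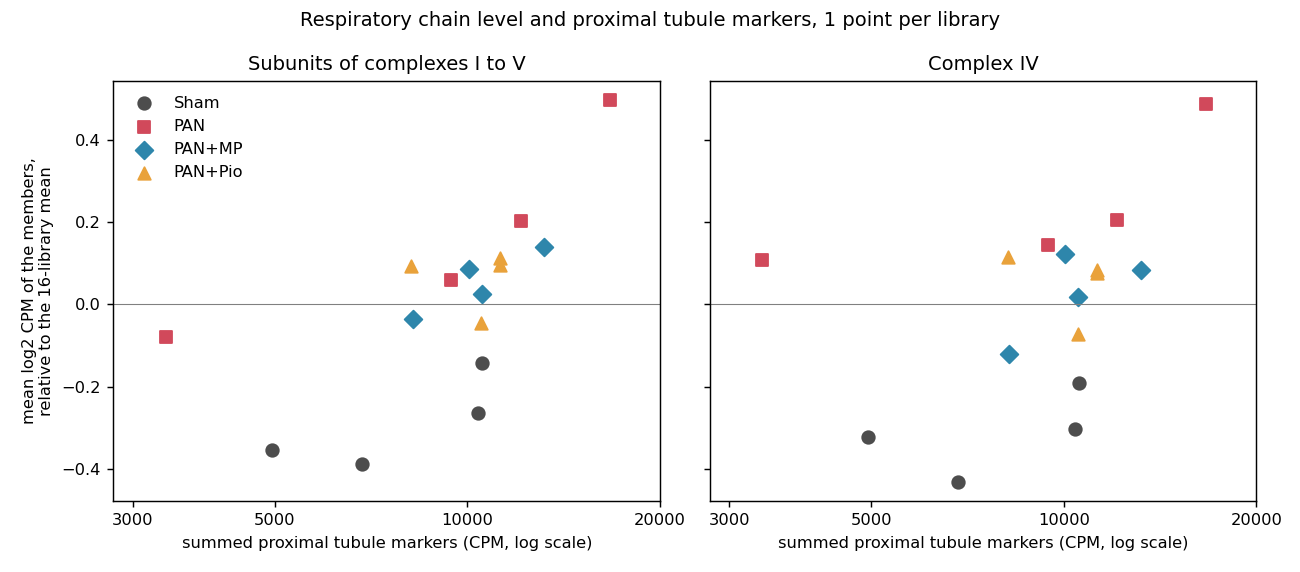
Level of the respiratory chain subunits (left) and of complex IV (right) against the summed CPM of the proximal tubule markers on a log axis, 1 point per library. PAN library 2, leftmost at 3380 CPM, has a complex IV level of 0.11, above the sham libraries at -0.43 to -0.19. PAN library 3 is rightmost at 16685 CPM and has the highest level in both panels.

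With the tubule score as covariate, 44 of 86 members rose in PAN against sham and 0 fell, where 17.1% of all tested genes were called in either direction, and all 44 were among the 52. The median log2 fold change was 0.34. The calls lost were Atp5g2, Cox7a2, Ndufa6, Ndufb1, Ndufb3, Ndufb7, Ndufs1 and Uqcr10, which kept values above 0. Cox7a2 went from 0.67 to 0.55 (edgeR adjusted p = 0.0535), Ndufb1 from 0.58 to 0.51, Uqcr10 from 0.55 to 0.43 and Ndufb3 from 0.46 to 0.34. Atp5g2 went from 0.40 to 0.31, Ndufa6 from 0.34 to 0.27, Ndufb7 from 0.34 to 0.28 and Ndufs1 from 0.37 to 0.23. Cox8a had a log2 fold change of 0.81 ± 0.13 in this fit, Cox6a1 of 0.65 ± 0.08 and Uqcrq of 0.66 ± 0.11 (edgeR adjusted p = 0.000448, 6.2e-05 and 0.000535). Sdha, in contrast, went to 0.02 ± 0.09, Sdhc to 0.12 ± 0.10 and Atp5b to 0.21 ± 0.09 (edgeR adjusted p = 0.93, 0.46 and 0.132).

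The count with the score depended on the same PAN libraries. Without PAN library 2, 6 members rose, without PAN library 3, 32, and without both, 8, and 0 fell in each fit. Of all tested genes 4.71%, 13.5% and 4.10% were called in these fits. The median log2 fold change over the members was 0.28, 0.27 and 0.25. Without both libraries Cox6a1 had a log2 fold change of 0.63 (edgeR adjusted p = 0.00788), Cox8a of 0.70 and Uqcrq of 0.52 (edgeR adjusted p = 0.0562 and 0.0727).

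PAN library 2 had a tubule sum of 3380 CPM, below that of every sham library, and was singled out after that sum was seen. In it 47 of 86 members lay above all 4 sham libraries, a share of 54.7%, against 25.9% of all tested genes. The share was 9 of 13 in complex IV, 5 of 8 in complex III, 19 of 34 in complex I, 7 of 14 in complex V and 1 of 4 in complex II. The numbers for PAN libraries 1, 3 and 4 were 63, 82 and 79 of 86, against 27.1%, 33.5% and 28.1% of all tested genes.

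The covariate moved the other comparisons as well. In PAN+MP against PAN, 4 members then fell, Atp5g1, Atp5j2, Cox5a and Uqcrh, with 11.0% of all tested genes called. In PAN+Pio against PAN 2 fell, Atp5o and Ndufb5, with 5.05% called. Against sham, the members that rose numbered 7 in PAN+MP and 9 in PAN+Pio, with 4.42% and 2.67% of all tested genes called. When PAN libraries 2 and 3 were left out of this fit, the calls against PAN were lost, and 3 and 6 members rose against sham. For the members named in these comparisons, Uqcrh had a log2 fold change of -0.37 under methylprednisolone (edgeR adjusted p = 0.0432) and Ndufb5 of -0.38 under pioglitazone (edgeR adjusted p = 0.0322).

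**Figure D5:**
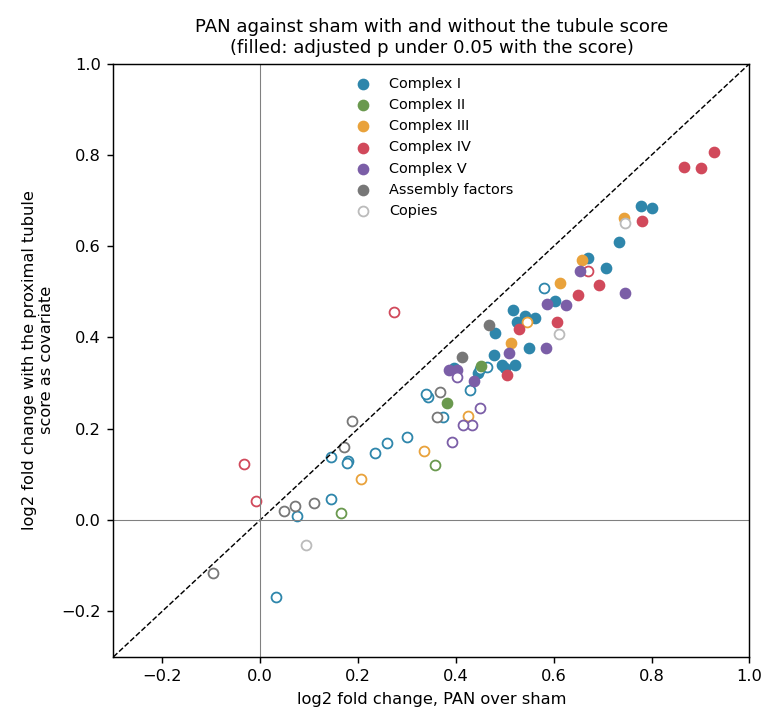
Log2 fold change of PAN over sham without (horizontal) and with (vertical) the proximal tubule score as covariate, 1 point per tested member, coloured by complex. Filled points passed an adjusted p under 0.05 with the score, and the dashed line marks equal values. Most points lie below the line, and Cox8a, Cox6c and Cox7c of complex IV stay highest at 0.77 to 0.81.

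Markers of other cells also differed between PAN and sham. Macrophage markers summed to 89.9 to 128 CPM in sham and 150 to 221 CPM in PAN, where 3 of 9 rose, and mesangial and smooth muscle markers to 1344 to 2019 CPM and 2229 to 3277 CPM, where 4 of 9 rose and 1 fell. Endothelial markers summed to 5858 to 8450 CPM and 4121 to 6447 CPM, where 6 of 9 fell. Of the podocyte markers 1 of 12 rose and 4 fell. Over all tested genes 10.4% rose and 18.9% were called in either direction. The part of these shifts in the respiratory chain result was not tested. Striated muscle markers summed to 5.85 to 20.5 CPM in sham and 182 to 586 CPM in PAN, nearly all from Ttn, with 3 of 4 tested genes risen. The median log2 fold change of the 4 was 3.82. Ckm and Mb, on the same list of 11 genes, were not among the 4 tested and do not stand for the list. They were at 0 CPM in all sham libraries. In PAN, Ckm was at 0 and Mb at 0.0762 CPM or less. Whether muscle cells contributed was not tested.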

How the data were processed

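RNA of isolated glomeruli was sequenced from directional libraries of 350 ng total RNA after removal of ribosomal and globin transcripts, per the labels' protocols. The submitters' processing notes name the build Rnor_6.0 and the tools STAR, cutadapt, DESeq2 and HTSeq 0.6.1p1, whose roles are not given in the sources used here, nor is the annotation. Raw counts of 16 libraries are held by the deposited table, per the file headers. The authors' log2 fold changes and adjusted p-values in the same table were used only to count their calls. No use was made of 16 further normalised per-sample columns.

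The names of the count columns gave the group of each. They carry no replicate numbers, an extra tag stands in 1 sham and 1 PAN+Pio name, and the untreated disease columns carry the word high, which the labels do not explain. The test was edgeR 4.0.16 under R 4.3.3 (filterByExpr with a minimum count of 10, TMM scaling, glmQLFit with 1 term per group over the 16 libraries and 12 residual degrees of freedom, glmQLFTest). The p-values were adjusted by Benjamini and Hochberg over 17061 genes, and a gene was said to rise or fall at an adjusted p under 0.05. The SE is the size of the log2 fold change over the square root of F. Log2 CPM used a prior count of 2. The common biological coefficient of variation was 19.4%. For members with many reads, the spread between libraries therefore limits precision more than depth does. This does not hold for members with few reads, such as Cox7a2l2 and Cox6b2, with medians of 10 and 18 reads. DESeq2 1.42.0 was an alternative. Procedures were tested on simulated data.

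The values of 1 member are not reported here by name, and it stays in the counts. Members and gene lists were chosen with earlier results of these data known. Members named are, per complex, the 3 with the smallest p in PAN against sham, the 1 nearest 0, those with the smallest p under each drug against PAN, and tissue-restricted isoforms with their counterparts. Per list, up to 2 called genes with the smallest p were eligible. Cell type markers named singly, such as Ckm and Mb, lie outside these rules. Atp5a1, Atp5b, Ppargc1a and the genes whose calls were lost or gained with the tubule score were added after their values were seen. Genes carry no coordinates here, since the reference tables are of a different build, and promoter stretches carry GRCr8 coordinates.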

Additional observations from a re-analysis of the deposited data

Results flagged for a closer look

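The groups of 4 libraries examined numbered 172 (named members, levels of the complexes, and proximal and distal tubule marker sums). In 7 of them the highest or lowest library stood apart. Its gap to its neighbour took up more of the group's range than Dixon's critical value for 4 values. No tubule sum was among the 7. Chance gives such a gap in about 1 in 20 groups. In the sham group, Ndufa2 was low in library 1 at 7.40 CPM and Ndufa4l2 was high in library 3 at 35.0 CPM. In the PAN group, Ndufaf1 was high in library 3 at 19.2 CPM. In the PAN+Pio group, library 2 had the lowest complex II level, -0.0404, and the lowest Sdha level, 396 CPM. Library 3 of that group, whose column carries the extra tag, was low in Cox8a at 33.2 CPM and high in Cox7a2 at 40.1 CPM.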

How the results depend on the processing

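No paired analysis was possible because the count columns carry no replicate numbers. The 52 members that rose in PAN against sham numbered 52 with RLE scaling, 51 with upper-quartile scaling, 52 with no filter, 49 with the distal nephron score, 38 with both tubule scores, 55 without the 2 tagged libraries and 56 by DESeq2. They numbered 29 with only the 2 groups fitted and 32 without PAN libraries 2 and 3, where fewer libraries entered. With 1 library left out at a time they numbered 29 to 64. Fits of only the 2 groups compared gave 36 in PAN+MP against sham and 21 in PAN+Pio against sham. With the proximal or distal score as covariate, PAN+MP against PAN gave 4 and 3, PAN+Pio against PAN 2 and 3, PAN+MP against sham 7 and 4 and PAN+Pio against sham 9 and 4. With both scores the comparisons with sham gave 7 and 7, and without PAN libraries 2 and 3 they gave 38 and 39. With the proximal score and without PAN libraries 2 and 3, PAN against sham gave 8, PAN+MP against sham 3 and PAN+Pio against sham 6. PAN+Pio against sham gave 10 without the tagged libraries and 35 by DESeq2. With 1 library left out, PAN+MP against PAN gave 0 to 1, PAN+MP against sham 7 to 36, and PAN+Pio against sham 7 to 35. The fit with both scores, the test of the tubule slope and leaving out PAN libraries 2 and 3, with or without the score, were chosen after seeing the data. The cause of these differences in count was not tested. Except where given above, shares over all tested genes are not set beside them, so a change particular to the members is not shown.

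Of 24 named members called in PAN against sham, Atp5l, Cox6a1, Cox6c and Uqcr11 kept the call under all 27 alternatives, and 11 lost it under 1 alone, the proximal score without PAN libraries 2 and 3. Atp5g2, Cox7a2, Sdhb, Sdhd, Ndufb5, Ndufaf5, Atp5j, Cox4i1 and Uqcrh lost it under 2 to 9. Some uncalled values near 0 changed sign. With the proximal score and without PAN libraries 2 and 3, Ndufa4l2 was at 0.157, Ndufv3 at -0.195, Sdha at -0.0538 and Uqcrc1 at -0.0436. Cox4i2 was at 0.00621 with no filter, 0.0112 with 2 groups, 0.0418, 0.0308 and 0.0304 with the proximal, distal and both scores and 0.00198 without the tagged libraries, and -0.22 to 0.15 with 1 library left out. Ndufa4l2 was at 0.123, 0.0706 and 0.114 with these scores and -0.20 to 0.22 with 1 library left out. Ndufv3 was at -0.169, -0.0793 and -0.177, and -0.12 to 0.16. With 1 library left out, Ndufaf3 ran from -0.0248 to 0.109 and Sdhb in PAN+Pio against PAN from -0.181 to 0.0475. The log2 difference in tubule sum ran from -0.10 to 0.67 in PAN against sham, -0.26 to 0.51 in PAN+MP against PAN, -0.28 to 0.49 in PAN+Pio against PAN and -0.13 to 0.10 between the drugs.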
